A study of Mus musculus with 72 samples.

Results

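Liver of female SAMP1 mice that had eaten coenzyme Q10 in its oxidised form (Q10) for 14 months was compared with liver of mice kept on the control diet for as long. The arrays were chosen by their labels for tissue, diet and duration, 3 on Q10 and 3 on control, which makes 6 of the 18 liver arrays and of the 72 arrays of the series. SAMP1 is an inbred strain prone to accelerated senescence, and controls and Q10 mice shared strain, sex and specific pathogen free housing. Mice entered the study at 4 weeks of age, ate about 500 mg of Q10 per kg of body weight a day by mean food intake, and were killed at a total age of 15 months (the age label gives the 14 months on diet). The design text says that 3 mice of each group were killed, so the 3 arrays of a group are taken as 3 animals, numbered as in the labels. Mice lived 3 to 6 to a cage in unchanged groups, and no label gives the cage, so cage and diet cannot be told apart. The liver arrays of mice on QH2, the reduced form at the same dose, and of mice killed after 6 months enter the fit and 2 tests of difference.

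Coenzyme Q is a lipid of the inner mitochondrial membrane that carries electrons from complex I, complex II and other dehydrogenases to complex III, and in its reduced form it is an antioxidant in membranes and lipoproteins. Its side chain is made from mevalonate, the pathway that also gives cholesterol. Liver RNA comes mostly from hepatocytes, which make plasma proteins, bile acids and urea and clear drugs, and in smaller part from Kupffer cells (the resident macrophages), endothelial and stellate cells and leukocytes in the sinusoids. In whole liver RNA, fewer or more cells of a type and less or more RNA per cell cannot be told apart.

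Genes that define hepatocytes were bright in all 6 arrays. The summed signal of the 25 tested hepatocyte genes, all 25 of those found on the array, ranged from 144078 to 147755 on control and was 148552, 134475 and 141435 in Q10 arrays 1, 2 and 3, and none of these genes was called. Signals are in the arbitrary units of the array after quantile normalisation of the 18 liver arrays, and a value is set beside another only for the same probe set. The 3 Q10 arrays were not alike. The share of tested probe sets more than 2-fold from the control mean was 11.44%, 24.41% and 15.47% in Q10 arrays 1, 2 and 3. It was 7.246% to 8.811% in the controls, each set against the mean of the other 2 controls. Log signals correlated at 0.949 to 0.958 among controls, at 0.935 to 0.946 between Q10 array 1 and the controls, at 0.853 to 0.877 for array 2 and at 0.895 to 0.918 for array 3, while Q10 arrays 2 and 3 correlated with each other at 0.949. On the first principal component of the 18 liver arrays (23.1% of the variance) Q10 array 2 scored 128.7 and array 3 scored 99.03, against 31.85 for array 1 and at most 29.38 elsewhere.

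A measure of RNA integrity moved with these differences. The ratio of 3′ to 5′ signal of Actb, which rises as RNA is degraded, was 3.492, 3.882 and 4.113 on control and 3.045, 1.586 and 1.984 on Q10 (means 3.829 ± 0.314 and 2.205 ± 0.754, SD, n = 3, exact permutation test, 2-sided p = 0.1, the smallest that 3 against 3 allows). It was lowest in the same arrays 2 and 3, and all 3 Q10 arrays lay below the controls. For Gapdh the ratio was 1.242, 1.372 and 1.521 on control and 1.312, 0.9744 and 0.9651 on Q10 (exact permutation p = 0.2). The deposited mean signal overlapped between the diets, at 140.5, 104.9 and 109.1 on control and 117.5, 171.9 and 134.2 on Q10 (exact permutation p = 0.3), and the median signal was highest in Q10 arrays 2 and 3. Results are therefore given array by array, and also with Q10 array 1 as the only Q10 array.

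**Figure D1:**
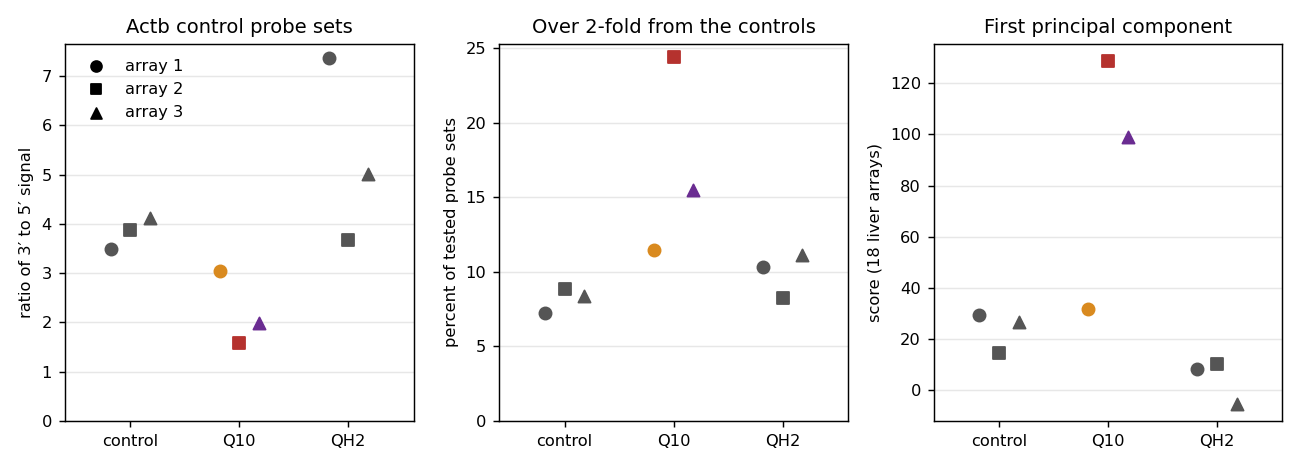
Measures of the 9 liver arrays at 14 months, each point 1 array, with the diet on the x axis: the Actb 3′ to 5′ signal ratio, the percent of tested probe sets over 2-fold from the control mean, and the score on the first principal component of the 18 liver arrays. For the percent, each control array is set against the mean of the other 2 controls. Q10 arrays 2 (square) and 3 (triangle) have the lowest ratios, 1.586 and 1.984, and the highest scores, 128.7 and 99.03, while Q10 array 1 (circle) scores 31.85.

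Most tested genes of macrophages, B cells, interferon signalling and leukocyte movement and some of cell division were called higher on Q10. Most of cholesterol synthesis and some of amino acid breakdown were called lower. With limma and Benjamini-Hochberg adjustment, 1677 of 27022 tested probe sets passed an adjusted p of 0.05 (called), which is 6.21% of those tested. Of these 1048 were higher on Q10 (3.88%) and 629 were lower (2.33%). Over all tested probe sets the median log2 difference was -0.096, and -0.0053, -0.11 and -0.083 in Q10 arrays 1, 2 and 3. In 23.8% of probe sets the 3 Q10 arrays did not overlap the 3 controls, and 1524 of the 1677 calls were among these. Among the 12775 named genes taken at their brightest tested probe set, which is how the gene lists below are counted, 5.32% were called higher and 2.61% lower. Members were tested only where their mean over all 18 liver arrays passed the 40th percentile, so a gene that is near background without Q10 could pass through its Q10 arrays, and each list is given with its number tested. No detection calls were used here, so whether a low control signal lay above background was not measured, and the fold of such a gene depends on the added 1. Of the 203 called genes named in the text 147 had every tested probe set called the same way and none had probe sets called in opposite directions, but in Cfp, Ctsb, H2-K1, Tgfb1, Uqcrq and Meg3 a probe set that was not called had the opposite sign. Among genes named but not called, Ccr2, Cxcl12, Eif2ak2, Prf1, Sod1, Ttr and Xbp1 had probe sets of both signs. In a fit of the 6 arrays alone, which keeps the differences and estimates the spread from these arrays, limma called 0 probe sets (4623 at an unadjusted p under 0.05). With the log2 Actb ratio as a covariate it also called 0 (1685 at an unadjusted p under 0.05). Many differences were smaller there, at 3.547 against 6.394 for Cxcl13, 3.347 against 5.213 for Marco and -0.3084 against -0.8955 for Agxt. Others kept their size or were greater, at -2.202 against -2.012 for Igha, -1.561 against -1.529 for Msmo1 and 1.577 against 1.425 for Iigp1. In these 6 arrays the ratio and the diet cannot be told apart. With the deposited values unnormalised, 789 probe sets were called, 97.6% of them higher against 62.5% here, and the median over all probe sets moved from -0.096 to 0.33.

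Among the called probe sets Q10 array 1 was mostly the least changed of the 3 Q10 arrays. Over the 1048 probe sets called higher the median log2 difference from the control mean was 0.85, 2.25 and 2.07 in Q10 arrays 1, 2 and 3, and array 1 was the least changed in 92.7% of them. Over the 629 called lower it was -0.39, -1.39 and -0.98, with array 1 least changed in 86.2% and array 2 most changed in 506 of them. These medians describe the probe sets the same arrays chose. Over whole gene lists, 58 of 72 kept the sign of their median with array 1 as the only Q10 array. In some lists array 1 was near 0 or on the other side, as in fatty acid synthesis (0.14, -0.96 and -0.88 by array). The same held for drug metabolising cytochromes (0.0037, -1.31 and -0.31) and extracellular matrix (0.0068, 1.62 and 0.398). Leaving out control array 1, 2 or 3 gave 744, 518 or 759 calls, leaving out Q10 array 1, 2 or 3 gave 5416, 468 or 512, and 366 calls (321 higher and 45 lower) passed in all 6 of these fits. With array 1 as the only Q10 array 14 probe sets were called, 9 higher and 5 lower, and 10 of them were among the 1677. They included Iigp1 and Gbp7, interferon induced GTPases, Psmb8 of the immunoproteasome, Csf2rb, the shared beta receptor chain of granulocyte and macrophage growth factors, and BC023105.

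**Figure D2:**
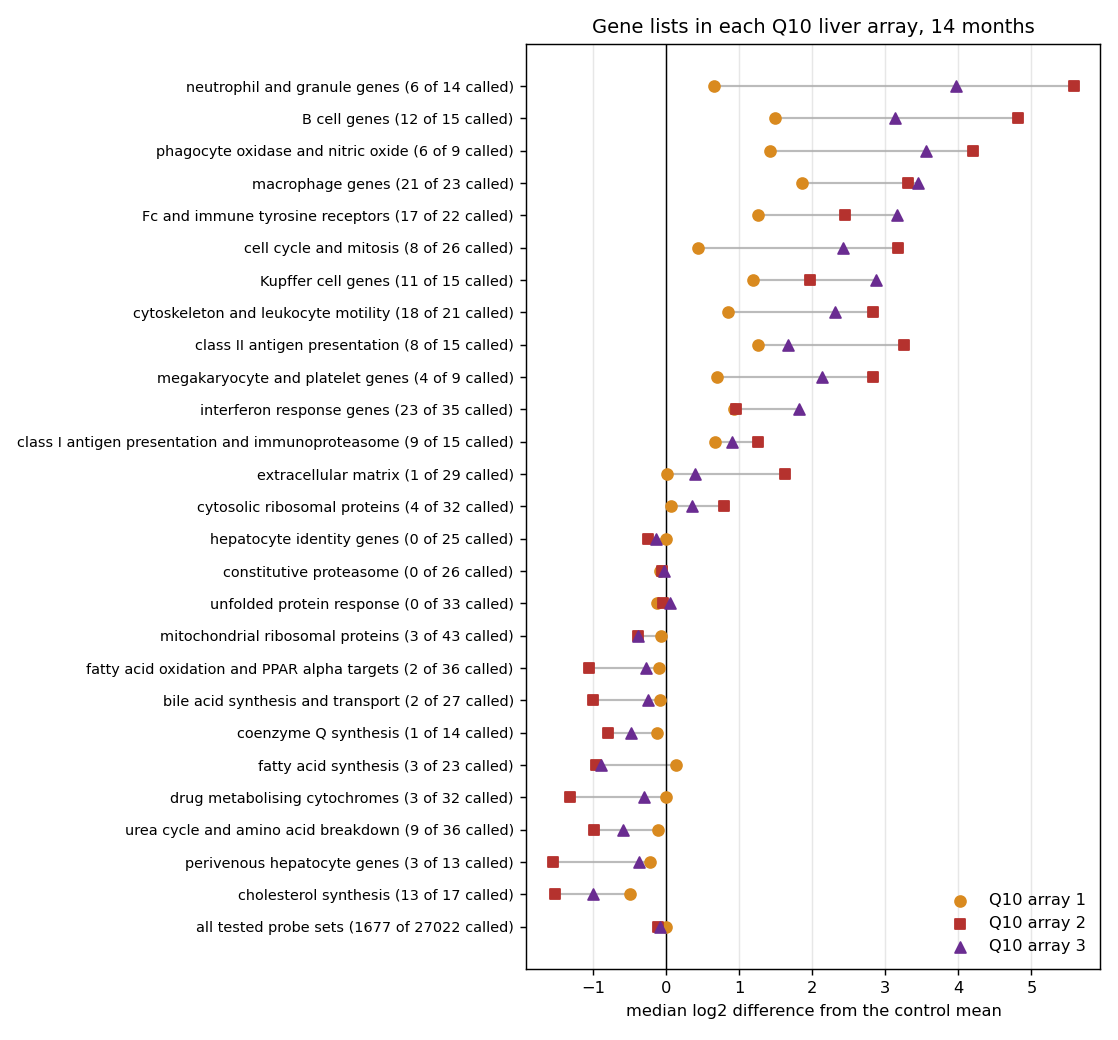
Median log2 difference from the control mean (x axis) over the tested members of each gene list (y axis), with 1 point for each Q10 liver array and the number of members called in brackets. Array 1 lies nearest 0 in most lists that moved, as in the neutrophil list at 0.66 against 5.59 and 3.96, and in the interferon list array 1 at 0.93 lies beside array 2 at 0.96.

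Macrophage genes rose in 21 of 23 (of 24 on the array) tested members and none fell. Their median log2 difference was 2.84, and 1.87, 3.305 and 3.45 in Q10 arrays 1, 2 and 3, against -0.096 over all tested probe sets. Ctss encodes cathepsin S, a protease of antigen presenting cells, and its signal was 261, 129 and 218 on control and 752, 1927 and 2128 on Q10. Mpeg1, a pore forming protein of phagocytes, was 285, 177 and 344 on control and 979.9, 2063 and 1981 on Q10. Csf1r, the receptor for the macrophage growth factor CSF1, was 675, 290.1 and 749 on control and 1769.8, 2335 and 5758 on Q10. In each of these 3 genes every Q10 array lay above every control, with array 1 the lowest of the Q10 arrays (log2 2.9003 ± 0.35, adjusted p = 0.000333 for Ctss, log2 2.61 ± 0.31, adjusted p = 0.000333 for Mpeg1 and log2 2.44 ± 0.38, adjusted p = 0.00115 for Csf1r). Adgre1, the F4/80 antigen of tissue macrophages, was 61.3, 40.8 and 65.3 on control and 142, 196 and 433 on Q10 (log2 2.05 ± 0.31, adjusted p = 0.000856). The adaptors Fcer1g (log2 3.52 ± 0.46, adjusted p = 0.000447) and Tyrobp (log2 3.65 ± 0.504, adjusted p = 0.000539), which couple activating receptors to kinases, rose more. Lyz1 and Lyz2, near identical lysozyme genes that a probe set may not separate, were highest in Q10 array 2 (3703 for Lyz2, against 487 and 559 in arrays 1 and 3 and 167, 70.7 and 166 on control, log2 2.99 ± 0.52, adjusted p = 0.00245). Cd14, the endotoxin coreceptor, was instead highest in array 3 (23.4, 31.5 and 40.4 on control and 81.7, 75.8 and 248 on Q10, log2 1.86 ± 0.36, adjusted p = 0.00492). 19 of the 21 calls passed whichever array was left out. Fcgr1 lost its call without control array 2 (adjusted p = 0.0657) or Q10 array 3 (0.065). Msr1 lost its call without control array 2 (adjusted p = 0.0767), control array 3 (0.0799) or Q10 array 3 (0.102). None was among the 14 probe sets called with array 1 as the only Q10 array.

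Genes that mark Kupffer cells were among those that rose, 11 of 15, with a median of 2.101 (1.18, 1.97 and 2.87 by array). Marco, a scavenger receptor for bacteria and particles, was 24.1, 9.11 and 11.5 on control and 75.8, 1237 and 1699 on Q10, so that arrays 2 and 3 stood far above array 1 and array 1 above all controls (log2 5.21 ± 0.86, adjusted p = 0.00169). Cd5l, a protein secreted by macrophages, was 295, 89.8 and 259 on control and 970.05, 1994 and 2934 on Q10 (log2 3.22 ± 0.41, adjusted p = 0.000333). Clec4f, a lectin of Kupffer cells, was 349, 147 and 422 on control and 1011, 819.5 and 2081 on Q10 and here array 2 was the lowest of the Q10 arrays (log2 2.101 ± 0.36, adjusted p = 0.00225). Timd4, a receptor for dying cells, was 19.7, 8.04 and 14.3 on control and 46.8, 184 and 155 on Q10 (log2 2.97 ± 0.46, adjusted p = 0.00105). Vsig4, the complement receptor of resident macrophages, was 245, 90.2 and 279 on control and 848, 1092 and 3006 on Q10 (log2 2.93 ± 0.46, adjusted p = 0.00111), with array 3 the highest. Hmox1, which breaks down heme, rose as well (log2 1.75 ± 0.31, adjusted p = 0.00244). Ferroportin Slc40a1, which exports the iron, was 1642, 1478 and 1735 on control and 2238, 1725 and 2825 on Q10 and was not called (log2 0.46 ± 0.18, adjusted p = 0.128). Spic, a transcription factor of iron recycling macrophages, was at 328 in Q10 array 3 and at 6.36 and 41.2 in arrays 1 and 2, against 8.39, 15.6 and 6.98 on control, and was not called (log2 2.12 ± 0.95, adjusted p = 0.199).

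Of 11 (of 12 on the array) tested genes of recruited monocytes and tissue repair macrophages 6 rose (median 1.37, 0.68, 2.23 and 1.28 by array). Lgals3, galectin 3 of activated macrophages, was 63.03, 33.4 and 86.7 on control and 187, 778 and 787 on Q10 with no overlap (log2 3.07 ± 0.49, adjusted p = 0.00129). S100a4, S100a6, Cd9, Ms4a7 and Fabp5 were called too, none of them in every fit that left out 1 array. S100a4 and S100a6 were called with all 6 arrays or without Q10 array 1 but not without any other array (adjusted p = 0.0681 to 0.236). Cd9 lost its call without control array 1 (adjusted p = 0.107), control array 2 (0.0545), control array 3 (0.0613) or Q10 array 2 (0.0728). Ms4a7 lost its call without control array 1 (adjusted p = 0.136), control array 2 (0.0822), Q10 array 2 (0.202) or Q10 array 3 (0.113). Fabp5 lost its call without control array 1 (adjusted p = 0.0615), control array 2 (0.185), Q10 array 2 (0.122) or Q10 array 3 (0.0908). Ccr2, the chemokine receptor of inflammatory monocytes, was 27.3, 13.7 and 16.2 on control and 30.0000, 80.8 and 31.8 on Q10 and was not called (log2 1.18 ± 0.53, adjusted p = 0.197), though the groups did not overlap and array 2 was highest. Trem2, a receptor of lipid handling macrophages, was not called either (log2 -0.24 ± 0.86, adjusted p = 0.915) at signals of 16.3, 21.03 and 1.14 on control and 9.89, 1.85 and 15.1 on Q10. Of 5 (of 12 on the array) tested dendritic cell genes Irf8 (log2 2.04 ± 0.38, adjusted p = 0.00384) and Cd83 (log2 2.13 ± 0.604, adjusted p = 0.0438) rose, and Flt3 and Zbtb46, which define the lineage, had signals under 20 in all 6 arrays and were not called. Cd83 was called with all 6 arrays or without Q10 array 1 but not without any other array (adjusted p = 0.097 to 0.289).

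Of 24 complement genes 6 rose and 1 fell, with a median of 0.37. The 3 chains of C1q, which macrophages secrete and which start the classical pathway, all rose: C1qa was 239, 100.01 and 236 on control and 630.3, 2414 and 2099.7 on Q10 (log2 3.04 ± 0.43, adjusted p = 0.000577). C1qb and C1qc changed by 3.29 ± 0.47 and 3.16 ± 0.41. Properdin Cfp, the positive regulator of the alternative pathway, was 74.4, 25.9 and 91.3 on control and 352, 1037 and 905 on Q10 (log2 3.597 ± 0.43, adjusted p = 0.000333), so each Q10 array was above each control for these 4 genes. Of the components made by hepatocytes, C8g fell (log2 -0.62 ± 0.18, adjusted p = 0.043) and C6 rose (log2 0.63 ± 0.17, adjusted p = 0.0357). C8g was called with all 6 arrays or without Q10 array 1 but not without any other array (adjusted p = 0.0903 to 0.241). C6 lost its call without control array 1 (adjusted p = 0.0875), control array 2 (0.173), Q10 array 2 (0.0771) or Q10 array 3 (0.182). Genes of Fc and immune tyrosine based receptors rose in 17 of 22 (of 23 on the array), with a median of 2.44 (1.26, 2.45 and 3.15 by array). Fcgr4, a receptor for IgG2, was 17.3, 12.4 and 27.6 on control and 89.4, 151 and 1013 on Q10, highest in array 3 (log2 3.65 ± 0.59, adjusted p = 0.00135). Fcgr3 was 38.8, 21.3 and 38.01 on control and 106, 175 and 293 on Q10 (log2 2.44 ± 0.34, adjusted p = 0.000539), and the lectins Clec7a, which binds fungal glucans, and Clec4n changed by 1.84 ± 0.27 and 2.83 ± 0.44. The kinase Syk, which takes up these signals, was 27.7, 26.7 and 32.3 on control and 71.8, 844 and 376 on Q10. The phosphatase Ptpn6, which ends them, was 113, 84.8 and 109 on control and 154, 909.8 and 423 on Q10. Both were highest in array 2 and neither overlapped with control (log2 3.26 ± 0.64, adjusted p = 0.00572 and log2 1.93 ± 0.38, adjusted p = 0.00539). Ptprc, the leukocyte antigen CD45, was 103, 66.8 and 106 on control and 214, 1232 and 1322 on Q10 (log2 2.95 ± 0.48, adjusted p = 0.00158).

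The phagocyte oxidase makes superoxide, and its genes and those of nitric oxide synthesis rose in 6 of 9 (of 10 on the array) genes, with a median of 3.05 (1.42, 4.202 and 3.56 by array). Its membrane subunits Cybb and Cyba were 77.3, 37.9 and 83.4 on control and 224, 858 and 747 on Q10 and 74.8, 38.01 and 86.6 on control and 231, 1569 and 818 on Q10. Both rose (log2 3.05 ± 0.402, adjusted p = 0.000447 and log2 3.39 ± 0.47, adjusted p = 0.000568). So did the cytosolic subunits Ncf4 (log2 3.32 ± 0.46, adjusted p = 0.00054) and Ncf1 (log2 2.95 ± 0.47, adjusted p = 0.0013) and the GTPase Rac2 (log2 4.01 ± 0.56, adjusted p = 0.000569). All 3 Q10 arrays lay above all controls for these 5 genes, and their calls passed whichever array was left out. Of 29 lysosome genes 6 rose, with a median of 0.32. The cathepsins differed in size, from 2.9003 ± 0.35 for Ctss through 1.39 ± 0.17 for Ctsc (949, 794 and 760.3 on control and 1772, 2103 and 2752 on Q10) to 0.58 ± 0.14 for Ctsd and 0.46 ± 0.13 for Ctsb. Ctsb was called with all 6 arrays or without Q10 array 1 but not without any other array (adjusted p = 0.053 to 0.213). Ctsd lost its call without control array 2 (adjusted p = 0.0921), control array 3 (0.07), Q10 array 2 (0.115) or Q10 array 3 (0.0712).

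**Figure D3:**
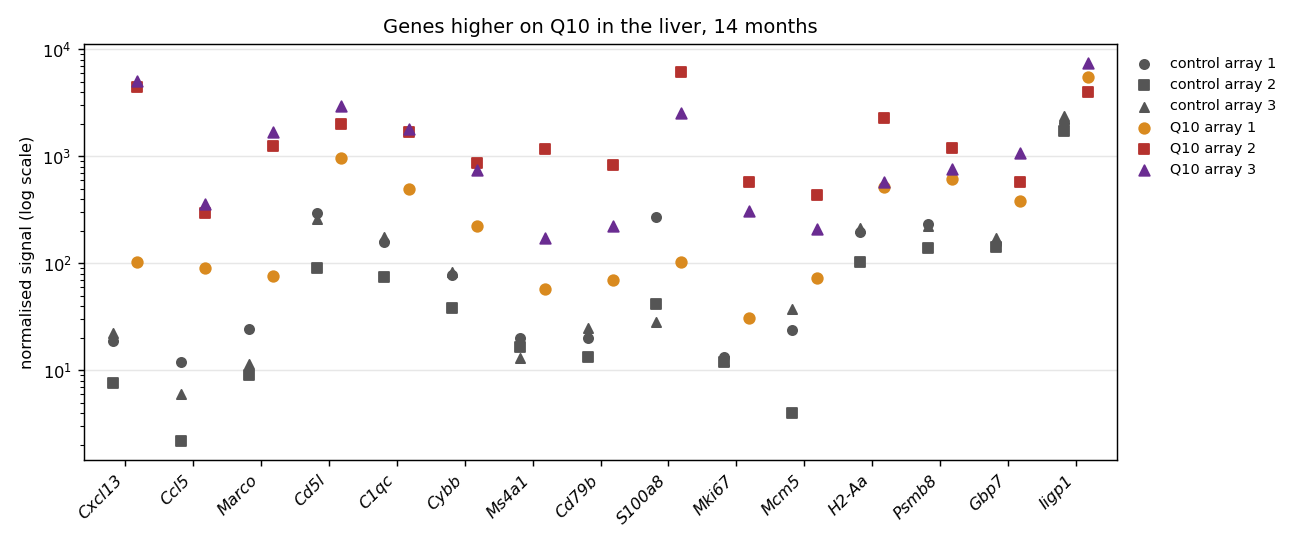
Quantile normalised signal on a log scale (y axis) of 15 genes called higher on Q10 (x axis), in the 3 control arrays (grey) and the 3 Q10 arrays (colours) at 14 months. Array 1 (circles) lies below arrays 2 and 3 for most genes and within the range of the controls for S100a8, while for Psmb8, Gbp7 and Iigp1 the 3 Q10 arrays lie closer together, all above the controls.

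B cell genes rose in 12 of 15 (of 17 on the array) tested members, with a median of 3.09 and with array 2 far ahead (1.49, 4.82 and 3.13 by array). Ms4a1, the CD20 antigen, was 20.2, 16.6 and 13.1 on control and 57.8, 1167 and 174 on Q10 (log2 3.72 ± 0.701, adjusted p = 0.00421). The antigen receptor chain Cd79b was 19.8, 13.3 and 24.7 on control and 69.6, 826 and 221 on Q10 (log2 3.58 ± 0.61, adjusted p = 0.0021). Bank1, a scaffold of B cell receptor signalling, was 26.9, 22.6 and 43.4 on control and 85.3, 245 and 208 on Q10 (log2 2.41 ± 0.34, adjusted p = 0.000569), with less difference between the arrays. Groups did not overlap for these 3 genes or for Tnfrsf13c, the receptor for BAFF (log2 2.91 ± 0.57, adjusted p = 0.00529), and the 4 calls passed whichever array was left out. The other 8 calls did not. Cd79a (3.55 ± 0.79), the inhibitory receptor Cd22 (3.09 ± 0.67), the transcription factor Spib (4.09 ± 0.89), the coactivator Pou2af1 (3.61 ± 0.89) and Cd37 (4.28 ± 0.97) belong to them. Pou2af1 was called with all 6 arrays or without Q10 array 1 but not without any other array (adjusted p = 0.0656 to 0.185). Cd79a lost its call without control array 1 (adjusted p = 0.0504), control array 2 (0.0669), Q10 array 2 (0.103) or Q10 array 3 (0.0527). Cd22 lost its call without control array 2 (adjusted p = 0.0669), Q10 array 2 (0.0853) or Q10 array 3 (0.0588). Spib lost its call without control array 2 (adjusted p = 0.0733) or Q10 array 2 (0.0865). Cd37 lost its call without control array 2 (adjusted p = 0.0673), Q10 array 2 (0.162) or Q10 array 3 (0.0647). Cxcr5, the receptor for CXCL13, was 7.65, 6.17 and 10.2 on control and 16.5, 50.2 and 20.3 on Q10 and was not called (log2 1.59 ± 0.82, adjusted p = 0.271).

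Cxcl13, the chemokine that draws B cells into follicles, had a signal of 18.7, 7.54 and 22.5 on control and 103, 4421 and 5089.6 on Q10, low in every control and highest in Q10 arrays 2 and 3 (log2 6.39 ± 0.94, adjusted p = 0.000704, and log2 5.464 with 16 added in place of 1). The 3 QH2 livers of the same age were at 8.52, 29.4 and 16.2. Of 10 (of 13 on the array) genes of follicles and lymphoid organs 2 were called, Cxcl13 and the adhesion molecule Vcam1 (54.1, 38.5 and 40.9 on control and 74.9, 429 and 316 on Q10, log2 2.28 ± 0.43, adjusted p = 0.0041). Lymphotoxin beta Ltb, needed for follicles to form, was 13.7, 4.66 and 31.2 on control and 42.5, 487 and 87.8 on Q10 and was not called (log2 3.15 ± 0.96, adjusted p = 0.0577). Antibody genes did not move together. The IgM heavy chain Ighm was 127, 79.8 and 117 on control and 239.6, 2552 and 6106 on Q10, with array 3 highest (log2 3.86 ± 0.71, adjusted p = 0.00362), and of its 7 tested probe sets 2 were called and 5 were not, so the probes disagree. The IgA heavy chain Igha went the other way in all 3 Q10 arrays, at 149.7, 116 and 191 on control and 33.04, 26.9 and 53.1 on Q10, and fell (log2 -2.01 ± 0.31, adjusted p = 0.000976), while the 3 QH2 livers were at 50.9, 58.2 and 60.6. Mzb1, a chaperone of antibody secreting cells, rose (log2 2.71 ± 0.63, adjusted p = 0.0158). Jchain, which joins IgM and IgA chains, was at 789 in Q10 array 3 but at 36.7 and 34.6 in arrays 1 and 2, below the 117, 52.7 and 106 of the controls (log2 0.22 ± 0.74, adjusted p = 0.909). The plasma cell regulators Prdm1 (log2 1.102 ± 0.53, adjusted p = 0.232) and Xbp1 (log2 0.25 ± 0.16, adjusted p = 0.375) were not called. Mzb1 lost its call without control array 2 (adjusted p = 0.0726), Q10 array 2 (0.12) or Q10 array 3 (0.0972).

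Few T cell genes were called, though the share called higher was above that among all named genes. Only 2 of 13 (of 18 on the array) tested members rose, with a median of 1.19 (1.15, 1.42 and 1.08 by array), and of -0.22 over the 2 members left by a filter at the 60th percentile. Cd2, an adhesion receptor, was 5.89, 6.17 and 4.29 on control and 26.9, 83.1 and 74.8 on Q10 (log2 3.14 ± 0.66, adjusted p = 0.0087). Cd3e of the T cell receptor complex was 4.03, 2.28 and 7.11 on control and 19.9, 32.9 and 35.99 on Q10 (log2 2.54 ± 0.67, adjusted p = 0.0304). Each Q10 array was above each control for both. Cd3d, Cd3g and Cd8a were under 50 in every array and were not called, with Cd8a at 17.5, 2.17 and 2.07 on control and 21.9, 15.3 and 10.9 on Q10 (log2 1.55 ± 0.77, adjusted p = 0.254). Cd2 lost its call without Q10 array 2 (adjusted p = 0.0722) or Q10 array 3 (0.0596). Cd3e lost its call without control array 1 (adjusted p = 0.0851), control array 2 (0.129), Q10 array 2 (0.15) or Q10 array 3 (0.125). Of 12 (of 17 on the array) genes of cytotoxic and natural killer cells 5 rose (median 1.96). Ccl5, a chemokine of activated T and killer cells, was 12.03, 2.17 and 6.01 on control and 90.4, 295 and 356 on Q10 (log2 5.01 ± 0.68, adjusted p = 0.00052). Its call alone of the 5 passed whichever array was left out. Gzmb, the granzyme B protease, was 2.79, 1.99 and 0.63 on control and 17.8, 32.96 and 29.1 on Q10 (log2 3.34 ± 0.67, adjusted p = 0.0062), and its difference was 1.243 with 16 added in place of 1, so its size depends on the offset. Gzma (7.13, 9.22 and 12.3 on control and 6.14, 9.94 and 5.87 on Q10) and perforin Prf1 (12.7, 10.02 and 22.9 on control and 15.5, 9.22 and 14.1 on Q10) overlapped between the diets and were not called (log2 -0.35 ± 0.57, adjusted p = 0.792 and log2 -0.17 ± 0.49, adjusted p = 0.889). Nkg7 was called with all 6 arrays or without Q10 array 1 but not without any other array (adjusted p = 0.112 to 0.194). Gzmb lost its call without Q10 array 2 (adjusted p = 0.052). Klrk1 lost its call without control array 1 (adjusted p = 0.0763), control array 2 (0.0769) or Q10 array 3 (0.105). Ctsw lost its call without control array 1 (adjusted p = 0.157), control array 2 (0.155), Q10 array 2 (0.14) or Q10 array 3 (0.164).

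Neutrophil and granule genes were high in Q10 arrays 2 and 3 and not in array 1. Of 14 (of 16 on the array) tested members 6 were called higher, with a median of 3.47 made of 0.66, 5.59 and 3.96 in arrays 1, 2 and 3. S100a8, a calprotectin subunit of neutrophil cytosol, was 271, 41.9 and 28.5 on control and 103, 6162 and 2532 on Q10. Array 1 thus lay below control 1, and the same held for its partner S100a9 (157, 33.2 and 21.8 on control and 76.2, 3634 and 1567 on Q10). Mpo, the peroxidase of primary granules, was 57.8, 15.96 and 5.22 on control and 33.6, 952 and 372 on Q10. Elane, neutrophil elastase, was 29.6, 0.92 and 12.9 on control and 21.9, 529 and 159.7 on Q10. Camp, the cathelicidin of secondary granules, was 45.01, 10.3 and 6.33 on control and 18.7, 1147 and 264 on Q10. In all 6 called genes the groups overlapped (log2 4.07 ± 1.102, adjusted p = 0.0352 for S100a8, log2 3.74 ± 0.89, adjusted p = 0.0179 for Elane and log2 3.65 ± 0.97, adjusted p = 0.0322 for Mpo). 0 of the 6 calls passed in every fit that left out 1 array. S100a8 lost its call without control array 2 (adjusted p = 0.138), control array 3 (0.142), Q10 array 2 (0.235) or Q10 array 3 (0.145). S100a9 lost its call without control array 2 (adjusted p = 0.101), control array 3 (0.105), Q10 array 2 (0.169) or Q10 array 3 (0.113). Mpo lost its call without control array 2 (adjusted p = 0.106), control array 3 (0.146), Q10 array 2 (0.223) or Q10 array 3 (0.127). Elane lost its call without control array 2 (adjusted p = 0.109), Q10 array 2 (0.137) or Q10 array 3 (0.0785). Camp lost its call without control array 2 (adjusted p = 0.146), control array 3 (0.159), Q10 array 2 (0.298) or Q10 array 3 (0.145). Ngp lost its call without control array 2 (adjusted p = 0.111), control array 3 (0.12), Q10 array 2 (0.206) or Q10 array 3 (0.117). Ctsg, Prtn3 and Ltf, other granule genes with the same order of arrays, were not called (log2 3.04 ± 0.92, adjusted p = 0.0566 for Ctsg). Lcn2, which neutrophils and hepatocytes both make, was 440.3, 283 and 331 on control and 366, 2187 and 971 on Q10 (log2 1.41 ± 0.58, adjusted p = 0.158).

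Platelet genes were called in 4 of 9 (median 1.62, 0.696, 2.84 and 2.14 by array). Pf4, platelet factor 4, was 29.4, 43.2 and 27.6 on control and 57.7, 770.2 and 291 on Q10 (log2 2.81 ± 0.57, adjusted p = 0.00663). Ppbp, the precursor of another platelet chemokine, was 25.8, 1.02 and 20.5 on control and 33.04, 1003 and 357 on Q10 (log2 4.45 ± 1.03, adjusted p = 0.0161). Array 1 was the lowest Q10 array in both and still above every control. Clec1b, a receptor of platelets that Kupffer and endothelial cells also carry, was 69.9, 75.9 and 88.3 on control and 166, 274 and 311 on Q10 (log2 1.62 ± 0.25, adjusted p = 0.000981). Ppbp lost its call without control array 2 (adjusted p = 0.103), Q10 array 2 (0.12) or Q10 array 3 (0.0774). Tubb1 lost its call without control array 1 (adjusted p = 0.0641), control array 2 (0.174), Q10 array 2 (0.251) or Q10 array 3 (0.0947). Of 8 (of 10 on the array) erythroid genes Car2 alone was called (log2 1.55 ± 0.37, adjusted p = 0.0184), and the membrane exchanger Slc4a1 (29.8, 26.6 and 35.3 on control and 39.96, 157 and 267 on Q10) and the heme enzyme Alas2 (131, 78.2 and 153 on control and 152, 213 and 282 on Q10) were not (log2 1.94 ± 0.68, adjusted p = 0.096 and log2 0.84 ± 0.31, adjusted p = 0.11), but the other of 2 tested Slc4a1 probe sets was called higher (log2 3.763). Car2 lost its call without control array 2 (adjusted p = 0.0563), control array 3 (0.0848), Q10 array 2 (0.106) or Q10 array 3 (0.113). Of mast cell and basophil genes limma called 0 of 3 (of 10 on the array) tested members (0 at an unadjusted p under 0.05).

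Interferon response genes were raised in all 3 Q10 arrays, with the median of array 1 close to that of array 2. Of 35 members 23 rose and none fell, with a median of 1.08 and of 0.93, 0.96 and 1.81 in arrays 1, 2 and 3. Interferons act through STAT proteins and IRF9 on an element with the core GAAANNGAA, and the promoters of 3 of the genes that rose, all GTPases that act against pathogens inside cells, are shown with that element in capitals (as its reverse complement where it lies on the other strand). They are the 160 bases just before the gene start, from RefSeq's GRCm38.p6 annotation: Gbp7 at chr3:142530176-142530335, plus strand, Gbp2 at chr3:142620503-142620662, plus strand and Igtp at chr11:58199396-58199555, plus strand.
Gbp7: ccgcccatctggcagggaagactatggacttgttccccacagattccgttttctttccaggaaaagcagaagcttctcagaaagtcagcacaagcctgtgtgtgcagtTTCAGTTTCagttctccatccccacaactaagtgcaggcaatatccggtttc
Gbp2: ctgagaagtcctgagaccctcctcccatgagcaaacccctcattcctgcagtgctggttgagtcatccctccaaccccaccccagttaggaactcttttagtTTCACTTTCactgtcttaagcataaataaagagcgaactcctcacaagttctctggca
Igtp: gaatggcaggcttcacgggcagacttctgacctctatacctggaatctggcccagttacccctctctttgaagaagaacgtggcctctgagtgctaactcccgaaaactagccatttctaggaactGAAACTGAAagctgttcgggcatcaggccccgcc
The element stood in 16 of 29 promoters of the list (55.2%, both strands, in 300 bases around the gene start, alternative starts included) and in 8.56% of all 32851 promoters of that length. Promoters were matched for 25 of the 35 genes, and 10 of the 16 called genes among them held the element. The STAT element TTCNNNGAA stood in 31% of the list and 8.3% of all promoters, and GAAANNGAA in 3 of 14 promoters of the class I genes below. A match is a description of the letters in this window.

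By array, Gbp7 was 152, 143 and 172 on control and 387, 574 and 1073 on Q10 (log2 1.99 ± 0.25, adjusted p = 0.000333). Igtp was 308, 195 and 263 on control and 822, 1164 and 2160.3 on Q10 (log2 2.34 ± 0.31, adjusted p = 0.000448). Gbp2 was 50.7, 41.1 and 36.9 on control and 114, 627 and 509.9 on Q10, with array 1 well below the others (log2 2.93 ± 0.47, adjusted p = 0.00137). Iigp1, an immunity related GTPase, was 2058, 1728 and 2372 on control and 5518, 3962 and 7467 on Q10, so array 2 was the lowest Q10 array and array 1 in the middle (log2 1.42 ± 0.195, adjusted p = 0.000529). Gbp6 had that order too, at 82.4, 56.4 and 96.2 on control and 382, 327 and 615 on Q10 (log2 2.46 ± 0.34, adjusted p = 0.000529). With array 1 as the only Q10 array 2 members of the list, Iigp1 and Gbp7, were still called (log2 1.44, adjusted p = 0.0148, and 1.31, adjusted p = 0.0269). Groups did not overlap for any of these 5. Of the antiviral sensors and effectors, Oas1a, which starts RNA decay, was 64.5, 66.2 and 67.5 on control and 148, 192 and 292 on Q10 (log2 1.601 ± 0.25, adjusted p = 0.00111). Ifit2 rose by 2.41 ± 0.42 and Irf7, an interferon regulatory factor, by 1.04 ± 0.23. Irf1, another such factor, was 193, 170.3 and 204 on control and 257, 383 and 451 on Q10 (log2 0.91 ± 0.21, adjusted p = 0.0159). Irf7 lost its call without control array 2 (adjusted p = 0.0679) or Q10 array 3 (0.0871). Irf1 lost its call without control array 2 (adjusted p = 0.081), Q10 array 2 (0.075) or Q10 array 3 (0.0975). Eif2ak2, the RNA dependent kinase, lay below the controls in all 3 arrays and was not called (log2 -0.37 ± 0.18, adjusted p = 0.24). The differences of its 3 tested probe sets, none of them called, ran from -0.3673 to 0.6548. In all 12 of the 23 calls passed whichever array was left out.

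Class I presentation shows peptides from inside the cell to CD8 T cells, and the immunoproteasome is the form of the proteasome that interferon brings about to cut them. Here 9 of 15 genes rose (median 0.88, 0.66, 1.26 and 0.905 by array) and 8 of these calls passed whichever array was left out. The catalytic subunit Psmb8 was 234, 139 and 221 on control and 615, 1189 and 766 on Q10 (log2 2.09 ± 0.24, adjusted p = 0.000333), and it remained called with array 1 alone (log2 1.67, adjusted p = 0.0393). Psmb9 was 204, 175 and 174 on control and 537, 1202 and 764 on Q10 (log2 2.099 ± 0.26, adjusted p = 0.000333). Psmb10 was 282, 226 and 268 on control and 441, 688 and 569 on Q10 (log2 1.11 ± 0.18, adjusted p = 0.00145). All Q10 arrays were above all controls for the 3 subunits, and the peptide transporter genes Tap1 (log2 1.76 ± 0.28, adjusted p = 0.00137) and Tap2 (log2 1.19 ± 0.23, adjusted p = 0.00444) and the loading factor Tapbp (log2 0.88 ± 0.17, adjusted p = 0.00587) rose with them. H2-K1, a class I heavy chain, rose by 1.16 ± 0.24, H2-D1 did not pass (log2 0.73 ± 0.22, adjusted p = 0.0517). The light chain B2m was 6659, 6623 and 6352 on control and 7088, 8597 and 7815 on Q10 (log2 0.26 ± 0.13, adjusted p = 0.28). Probes of the heavy chains may read other class I genes. The 26 genes of the constitutive proteasome had 0 calls in limma's fit (2 at an unadjusted p under 0.05) and a median of -0.052 (0.13 with the values as deposited). Class II presentation, which shows peptides from outside to CD4 T cells, rose in 8 of 15 genes with a median of 2.13, most in array 2 (1.25, 3.25 and 1.67). H2-Aa was 198, 103 and 212 on control and 515, 2299 and 579.6 on Q10 (log2 2.43 ± 0.52, adjusted p = 0.0101). The invariant chain Cd74 was 262, 111 and 274 on control and 602, 4213 and 911 on Q10 (log2 2.72 ± 0.56, adjusted p = 0.00723), and H2-Eb1 rose by 2.44 ± 0.56. H2-Aa lost its call without control array 2 (adjusted p = 0.0686) or Q10 array 2 (0.07). Cd74 lost its call without control array 2 (adjusted p = 0.058). H2-Eb1 lost its call without control array 2 (adjusted p = 0.0893) or Q10 array 2 (0.077).

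A minority of chemokines was called, at a share above that among all named genes. Of 21 (of 32 on the array) tested genes 6 rose (28.6%, against 5.32% of all named genes). They were Cxcl13, Ccl5, Pf4 and Ppbp, given above, and Cxcl9 and Ccl6. Cxcl9, which interferon gamma induces and which draws T cells, was 84.2, 52.9 and 172 on control and 245, 3060.3 and 619.9 on Q10 (log2 3.07 ± 0.61, adjusted p = 0.0062). Ccl6, a chemokine of macrophages, was 82.5, 27.9 and 70.98 on control and 156, 133 and 1059 on Q10, carried mostly by array 3 (log2 2.34 ± 0.57, adjusted p = 0.0216). Cxcl10 was 20.2, 27.7 and 22.5 on control and 32.5, 201 and 51.2 on Q10. Cxcl12, which keeps leukocytes in marrow, was 511, 517 and 451 on control and 424, 335 and 468 on Q10. Neither was called (log2 1.54 ± 0.54, adjusted p = 0.0952 and log2 -0.28 ± 0.16, adjusted p = 0.331). Ccl6 lost its call without control array 2 (adjusted p = 0.124) or Q10 array 3 (0.102). Limma called 0 of 12 (of 20 on the array) chemokine receptor genes (2 at an unadjusted p under 0.05, median 1.05), and most had low signals on control. Among 15 (of 29 on the array) tested interleukins and TNF family cytokines 2 rose. Il1b, an inflammatory cytokine of macrophages, was 21.2, 13.01 and 13.99 on control and 34.4, 40.7 and 196 on Q10 (log2 1.99 ± 0.47, adjusted p = 0.018). Tgfb1, which drives matrix production, was 37.3, 35.1 and 40.7 on control and 43.2, 227 and 136 on Q10 (log2 1.53 ± 0.405, adjusted p = 0.0324). Tgfb1 was called with all 6 arrays or without Q10 array 1 but not without any other array (adjusted p = 0.0769 to 0.233). Il1b lost its call without control array 2 (adjusted p = 0.0823), control array 3 (0.0658) or Q10 array 3 (0.0873).

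On the receiving side 7 of 29 (of 33 on the array) genes of cytokine receptors and JAK STAT signalling rose (median 0.52). Csf2rb was 46.2, 25.9 and 54.6 on control and 164, 405 and 573 on Q10 (log2 3.03 ± 0.33, adjusted p = 0.000333), and it was called with array 1 alone as well (log2 1.99, adjusted p = 0.0304). Il10rb, a chain of the interleukin 10 receptor, was 52.3, 62.97 and 86.1 on control and 125, 272 and 271 on Q10 (log2 1.66 ± 0.26, adjusted p = 0.00126). The feedback inhibitor Socs3 was at 307 in Q10 array 3, against 64.8 and 84.8 in arrays 1 and 2 and 66.7, 51.1 and 19.2 on control, and was not called (log2 1.54 ± 0.54, adjusted p = 0.0956). Toll like receptor and NF-kappa B genes rose in 11 of 26 (of 28 on the array) (median 0.91). Ly86, a partner of the Toll like receptor relative CD180, was 68.1, 39.1 and 87.9 on control and 177, 1329 and 629 on Q10 (log2 3.08 ± 0.51, adjusted p = 0.00166), and Tlr13, a sensor of bacterial ribosomal RNA, rose by 2.42 ± 0.42. The inhibitor Nfkbia, itself an NF-kappa B target, was 1114, 1198 and 898 on control and 1527, 2842 and 2527 on Q10 (log2 1.06 ± 0.21, adjusted p = 0.00553). Every Q10 array was above every control for these 3. Tlr2 and Tnfaip3 were called at 1.74 ± 0.39 and 2.16 ± 0.49. Tlr2 lost its call without control array 2 (adjusted p = 0.0639), Q10 array 2 (0.0823) or Q10 array 3 (0.095). Tnfaip3 lost its call without control array 3 (adjusted p = 0.0615), Q10 array 2 (0.113) or Q10 array 3 (0.0529).

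Genes by which leukocytes adhere and move were raised together. Of 21 genes of the cytoskeleton and leukocyte motility 18 rose (median 2.07, 0.85, 2.83 and 2.32 by array). Coro1a, an actin regulator of leukocytes, was 35.5, 23.4 and 34.9 on control and 118, 1646 and 503 on Q10 (log2 3.86 ± 0.56, adjusted p = 0.000685). Tmsb4x, thymosin beta 4, which binds free actin, was 1624, 923 and 1849 on control and 3917, 9433 and 8375 on Q10 (log2 2.27 ± 0.29, adjusted p = 0.00041). Array 1 was above all controls in both, and Fermt3 (3.13 ± 0.48), Arhgdib (2.98 ± 0.55) and Wipf1 (2.07 ± 0.34) were called whichever array was left out. Among 17 (of 20 on the array) integrins and adhesion genes 7 rose (median 1.66). Itgb2, the beta chain shared by leukocyte integrins, was 38.4, 20.1 and 39.4 on control and 121, 728 and 1164 on Q10 (log2 3.86 ± 0.603, adjusted p = 0.00111). Its partner Itgal was 27.2, 20.2 and 35.3 on control and 67.7, 241 and 302 on Q10. Icam1, the ligand of the pair, was 53.98, 49.9 and 53.6 on control and 98.7, 556 and 329 on Q10. Both rose, by 2.62 ± 0.48 and 2.303 ± 0.42, as did the hyaluronan receptor Cd44 (log2 2.99 ± 0.42, adjusted p = 0.000569). Of 23 (of 24 on the array) cell death genes 6 rose, among them Casp1 of the inflammasome (17.3, 18.9 and 14.6 on control and 40.3, 88.3 and 102 on Q10, log2 2.02 ± 0.38, adjusted p = 0.00401) and Casp8 (log2 0.98 ± 0.1999, adjusted p = 0.00694), with a median of 0.68. Casp8 lost its call without Q10 array 3 (adjusted p = 0.0551).

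Of the 15 named genes with the greatest rise, several belong to no list above. BC023105 had a signal of 13.7, 10.2 and 17.9 on control and 287, 182 and 1101 on Q10 (log2 4.73 ± 0.59, adjusted p = 0.000333), low in all controls and in the QH2 livers (12.2, 26.03 and 18.8), and its call also stood with array 1 as the only Q10 array (adjusted p = 0.0269). Cd24a, a surface glycoprotein of immature leukocytes and biliary cells, was 34.4, 23.9 and 27.8 on control and 78.8, 2037 and 1456 on Q10 (log2 4.39 ± 0.74, adjusted p = 0.00202). Cd52, a small surface protein of lymphocytes and myeloid cells, was 81.8, 44.5 and 87.1 on control and 261, 3381 and 1563 on Q10 (log2 4.01 ± 0.63, adjusted p = 0.00111). In these last 2 genes arrays 2 and 3 lay far above array 1. Cytip, which limits leukocyte adhesion (12.9, 2.38 and 4.29 on control and 31.5, 139 and 181 on Q10, log2 3.902 ± 0.71, adjusted p = 0.00352), and Ly6k (5.98, 7.44 and 0.63 on control and 21.3, 295 and 97.2 on Q10, log2 4.24 ± 0.81, adjusted p = 0.00478) were dim on control. Of the 15 genes 12 passed in every fit that left out 1 array, and Ppbp, Cd37 and Spib did not.

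Cell division genes were high in Q10 arrays 2 and 3 and little changed in array 1. Of 26 (of 34 on the array) tested genes of the cell cycle and mitosis 8 rose, and the median of 2.11 was made of 0.43, 3.17 and 2.43 by array. Mki67, the nuclear antigen Ki-67 of cycling cells, is shown by its promoter (160 bases before the gene start, GRCm38.p6, chr7:135716380-135716539, minus strand) with both copies of the cell cycle element TTTGAA in capitals.
Mki67: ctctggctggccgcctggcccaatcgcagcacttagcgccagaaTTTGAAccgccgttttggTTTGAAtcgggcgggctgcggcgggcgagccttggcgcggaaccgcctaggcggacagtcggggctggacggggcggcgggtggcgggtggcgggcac
This element stood in 13 of 22 promoters of the list (59.1%, both strands, 300 bases around the start, promoters matched for 20 of 26 genes) and in 17.9% of all promoters. The signal of Mki67 was 13.4, 11.9 and 12.2 on control and 31.1, 573 and 305 on Q10 (log2 3.72 ± 0.67, adjusted p = 0.00295). Top2a, the topoisomerase of dividing cells, was 16.6, 4.88 and 12.9 on control and 23.5, 301 and 86.02 on Q10 (log2 2.94 ± 0.68, adjusted p = 0.0155). The kinase Cdk1 was 4.12, 1.99 and 13.9 on control and 11.1, 138 and 83.4 on Q10, and its array 1 value overlapped with control (log2 3.09 ± 0.88, adjusted p = 0.0444). Mki67 alone of the 8 passed whichever array was left out. Top2a lost its call without control array 2 (adjusted p = 0.0922), Q10 array 2 (0.134) or Q10 array 3 (0.0628). Cdk1 lost its call without control array 1 (adjusted p = 0.125), control array 2 (0.181), Q10 array 2 (0.269) or Q10 array 3 (0.162). Replication genes followed, 8 of 33 (of 35 on the array) higher and 2 lower, with a median of 1.14 (0.29, 2.03 and 1.204 by array). Mcm5 of the replicative helicase was 23.7, 3.99 and 37.7 on control and 72.6, 433 and 208 on Q10 (log2 3.49 ± 0.68, adjusted p = 0.00539). Rrm2, which makes deoxynucleotides, was 27.2, 25.9 and 48.7 on control and 61.8, 516 and 251 on Q10 (log2 2.59 ± 0.51, adjusted p = 0.00553). Pcna, the sliding clamp, was 319, 320.4 and 303 on control and 369, 1294 and 880.2 on Q10 (log2 1.25 ± 0.28, adjusted p = 0.0143). Pcna lost its call without control array 2 (adjusted p = 0.0548), control array 3 (0.0515), Q10 array 2 (0.0867) or Q10 array 3 (0.0745). Those that fell were Mcm10 (log2 -1.13 ± 0.33, adjusted p = 0.0458) and Tert, the telomerase catalytic subunit, at low signals of 52.2, 46.8 and 75.3 on control and 18.4, 6.03 and 6.25 on Q10 (log2 -2.54 ± 0.42, adjusted p = 0.00162). Mcm10 was called with all 6 arrays or without Q10 array 1 but not without any other array (adjusted p = 0.058 to 0.204). Of 16 (of 18 on the array) senescence and p53 target genes Btg2 alone rose (log2 1.42 ± 0.34, adjusted p = 0.0187). Btg2 lost its call without control array 1 (adjusted p = 0.0642), control array 2 (0.0745) or Q10 array 2 (0.118).

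Transcription factors of blood cells rose in 9 of 24 (of 27 on the array) (median 1.96). Spi1, the PU.1 factor that directs macrophage and B cell fate, was 26.3, 17.4 and 17.2 on control and 59.5, 170.4 and 223 on Q10 (log2 2.66 ± 0.39, adjusted p = 0.000719). Ikzf1, a factor of lymphocytes, was 34.1, 15.2 and 21.5 on control and 52.2, 553 and 268 on Q10 (log2 3.09 ± 0.64, adjusted p = 0.00743). Fli1, of blood and vessels, rose by 2.002 ± 0.38. In all 3 genes array 1 was the lowest Q10 array and lay above the controls. Ikzf1 lost its call without control array 2 (adjusted p = 0.0509) or Q10 array 2 (0.0616). Immediate early genes, which cells switch on within minutes, rose in 6 of 19 (of 20 on the array) with a median of 1.01 that was alike by array (0.79, 1.05 and 0.96). Klf2 was 41.8, 30.8 and 25.6 on control and 58.2, 176 and 158 on Q10 (log2 1.84 ± 0.36, adjusted p = 0.00488). Myc, which drives growth, was 21.96, 26.6 and 10.2 on control and 49.7, 137 and 74.5 on Q10 (log2 2.07 ± 0.55, adjusted p = 0.0337). Egr1 instead was highest in array 1, at 142, 336 and 314 on control and 2221, 629 and 481 on Q10, and was not called although the groups did not overlap (log2 1.82 ± 0.63, adjusted p = 0.0936). Myc was called with all 6 arrays or without Q10 array 1 but not without any other array (adjusted p = 0.0639 to 0.206). Of the glycolysis genes, Pkm, the pyruvate kinase of non-liver cells (42.6, 19.4 and 47.3 on control and 69.02, 758 and 261 on Q10, log2 2.78 ± 0.56, adjusted p = 0.00619), and the hexokinases Hk2 (2.46 ± 0.48), Hk3 (1.89 ± 0.37) and Hk1 (1.38 ± 0.35) rose with Aldoa (1.26 ± 0.37), and the other 16 of 21 were not called. Aldoa was called with all 6 arrays or without Q10 array 1 but not without any other array (adjusted p = 0.108 to 0.29). Hk1 lost its call without control array 1 (adjusted p = 0.0683), control array 2 (0.119), Q10 array 2 (0.192) or Q10 array 3 (0.109).

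Cells of the liver's own stroma gave fewer calls. Of 18 liver endothelial genes 2 rose and 1 fell (median 0.103): the junction protein Cdh5 was 39.1, 36.2 and 26.6 on control and 58.9, 153 and 97.8 on Q10 (log2 1.49 ± 0.303, adjusted p = 0.00693). Pecam1 rose by 2.21 ± 0.56 and Kdr, the VEGF receptor, fell (log2 -0.73 ± 0.21, adjusted p = 0.0497). The scavenger receptors Stab2 (log2 0.62 ± 0.23, adjusted p = 0.117) and Stab1 (log2 -0.42 ± 0.199, adjusted p = 0.224), which define sinusoidal endothelium, were not called. Pecam1 and Kdr were called with all 6 arrays or without Q10 array 1 but not without any other array (adjusted p = 0.0533 to 0.222). Cdh5 lost its call without Q10 array 2 (adjusted p = 0.0565). Of 16 stellate cell and fibroblast genes 2 rose, and of 29 (of 35 on the array) matrix genes 1. Vim, an intermediate filament of mesenchymal cells and leukocytes, was 135, 166 and 189.7 on control and 236, 2013 and 1423 on Q10 (log2 2.43 ± 0.51, adjusted p = 0.00789). Dcn, the proteoglycan decorin, which is in both lists, was 750.4, 604 and 728 on control and 869.5, 2251 and 1149.9 on Q10 (log2 0.92 ± 0.25, adjusted p = 0.0359). Dcn was called with all 6 arrays or without Q10 array 1 but not without any other array (adjusted p = 0.0726 to 0.211). Vim lost its call without Q10 array 2 (adjusted p = 0.0567) or Q10 array 3 (0.058). The matrix list differed by array, with medians of 0.0068, 1.62 and 0.398. Col3a1, a fibrillar collagen, was 149, 164 and 184 on control and 178, 1906 and 276 on Q10, and Col4a1 of basement membranes was 85.1, 74.2 and 83.3 on control and 89.3, 953 and 155 on Q10, both highest in array 2 and not called (log2 1.46 ± 0.53, adjusted p = 0.108 and log2 1.54 ± 0.51, adjusted p = 0.078). The other of the 2 tested Col4a1 probe sets was called higher, at a like difference (1.514 and 1.54). Cytosolic ribosomal protein genes lay above 0 in all 32 (of 33 on the array) tested members (4 called, median 0.38, 0.072, 0.7998 and 0.35 by array), as with Rplp0 (2887, 2927 and 2633 on control and 3176, 7815 and 4268 on Q10, log2 0.75 ± 0.22, adjusted p = 0.046). Rplp0 was called with all 6 arrays or without Q10 array 1 but not without any other array (adjusted p = 0.0899 to 0.236).

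Cholesterol synthesis had the greatest share of members called lower of the 72 lists. Of 17 tested genes 13 fell, none rose, and all 17 had a negative log2 difference (median -0.97, -0.49, -1.52 and -1.003 in arrays 1, 2 and 3, -0.69 with the values as deposited). These genes share control by SREBP2, which binds sterol elements together with the CCAAT factor NF-Y, and 2 of their promoters are shown (160 bases before the gene start, GRCm38.p6). For Hmgcs1, the synthase that begins the pathway (chr13:119690191-119690350, plus strand), capitals mark the sterol element core TCACCCCAC, and for Msmo1, which removes methyl groups from the sterol ring (chr8:64733579-64733738, minus strand), they mark CCAAT.
Hmgcs1: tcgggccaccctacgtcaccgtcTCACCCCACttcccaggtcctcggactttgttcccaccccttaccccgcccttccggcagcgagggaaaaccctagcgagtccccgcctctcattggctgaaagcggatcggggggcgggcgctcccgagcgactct
Msmo1: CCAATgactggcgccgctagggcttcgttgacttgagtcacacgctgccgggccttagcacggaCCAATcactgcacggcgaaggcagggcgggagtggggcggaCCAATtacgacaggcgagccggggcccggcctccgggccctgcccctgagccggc
CCAAT on either strand stood in 14 of 17 promoters of the list (82.4%), among them all 12 called genes that had a promoter, and in 37.4% of all promoters of 300 bases. TCACCCCAC stood in 1 of the 17 (5.88%) and in 0.551% of all. Promoters were matched for 14 of the 17 genes. CCAAT was not particular to this list. It stood in 71.4% of promoters of the class I genes, 68.2% of cell cycle genes, 44.4% of macrophage genes and 37.9% of interferon genes.

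From acetyl units to mevalonate and its phosphates, Hmgcs1 was 9222, 8718 and 9222 on control and 6481, 3415 and 5237 on Q10 (log2 -0.89 ± 0.22, adjusted p = 0.0223). Mvk, mevalonate kinase, was 177, 168 and 143 on control and 81.003, 54.6 and 91.8 on Q10, and Pmvk, the next kinase, was 475, 412 and 312 on control and 279, 81.5 and 131 on Q10. Mvd, which makes the isoprene unit, was 189.9, 194 and 262 on control and 108, 45.8 and 60.99 on Q10. All 3 Q10 arrays lay below all controls for these 4, with array 2 the lowest, and Mvd had the lowest difference (log2 -1.65 ± 0.38, adjusted p = 0.0161). Fdft1, squalene synthase, the first step that leads only to sterols, was 2858, 2705 and 2760.5 on control and 1713, 855 and 1369.7 on Q10 (log2 -1.14 ± 0.23, adjusted p = 0.00667). Lss, which closes the sterol ring, was 800.4, 661 and 919 on control and 648, 165 and 288 on Q10 (log2 -1.32 ± 0.37, adjusted p = 0.0421). Further down, Cyp51 was 1213, 1184 and 1064 on control and 659, 359.6 and 608 on Q10 (log2 -1.13 ± 0.28, adjusted p = 0.0232). Msmo1 was 3615, 2572 and 1986 on control and 1066, 636 and 1131 on Q10 (log2 -1.53 ± 0.31, adjusted p = 0.00719). Hsd17b7 fell by 1.21 and Dhcr7, the last enzyme, by 0.73 on the log2 scale. Fdft1 and Msmo1 were the 2 whose calls passed whichever array was left out. With the values as deposited Msmo1 alone of the enzymes named here was called by limma (adjusted p = 0.0363). The others were then at 0.287 (Lss) to 0.674 (Dhcr7). Hmgcs1, Lss, Cyp51 and Dhcr7 were called with all 6 arrays or without Q10 array 1 but not without any other array (adjusted p = 0.0527 to 0.266). Mvk lost its call without control array 1 (adjusted p = 0.0976), control array 2 (0.0999), control array 3 (0.0577) or Q10 array 2 (0.171). Pmvk lost its call without control array 1 (adjusted p = 0.0829), control array 2 (0.0762), Q10 array 2 (0.128) or Q10 array 3 (0.0792). Mvd lost its call without control array 2 (adjusted p = 0.0528), control array 3 (0.072), Q10 array 2 (0.102) or Q10 array 3 (0.0699). Hsd17b7 lost its call without control array 1 (adjusted p = 0.0616), control array 3 (0.0537) or Q10 array 2 (0.0987). Q10 array 1 was below every control in all 8 genes whose array values are given, though none of the list was among the 14 probe sets called with array 1 as the only Q10 array. Genes that control the pathway moved less: Srebf2, which encodes SREBP2, was 119, 118 and 149 on control and 89.9, 76.3 and 74.3 on Q10 (log2 -0.68 ± 0.18, adjusted p = 0.0336), Stard4 was called at -0.66 ± 0.19, and Insig1 (log2 -0.75 ± 0.27, adjusted p = 0.104) and the other 15 of 18 genes were not. Srebf2 and Stard4 were called with all 6 arrays or without Q10 array 1 but not without any other array (adjusted p = 0.0725 to 0.291).

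Bile acid genes fell in 2 of 27 (of 29 on the array) (median -0.45, -0.086, -0.9998 and -0.25 by array, -0.16 with the values as deposited). Cyp7a1, the rate-limiting enzyme of bile acid synthesis, was 2712, 1753 and 2700.5 on control and 977, 600.1 and 919.5 on Q10, below the controls in each array (log2 -1.52 ± 0.32, adjusted p = 0.00811). Baat, which joins bile acids to amino acids, fell by 0.47 on the log2 scale (adjusted p = 0.049). Cyp8b1, which sets the share of cholic acid, was 1735, 1843 and 1866 on control and 1402, 677 and 1014 on Q10. The export pump Abcc2 was 1190.4, 891 and 904 on control and 549, 493 and 424 on Q10. Neither was called (log2 -0.88 ± 0.28, adjusted p = 0.0651 and log2 -1.02 ± 0.32, adjusted p = 0.0671), though no Q10 array reached the controls in either. Baat was called with all 6 arrays or without Q10 array 1 but not without any other array (adjusted p = 0.105 to 0.203). Cyp7a1 lost its call without Q10 array 2 (adjusted p = 0.0539).

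**Figure D4:**
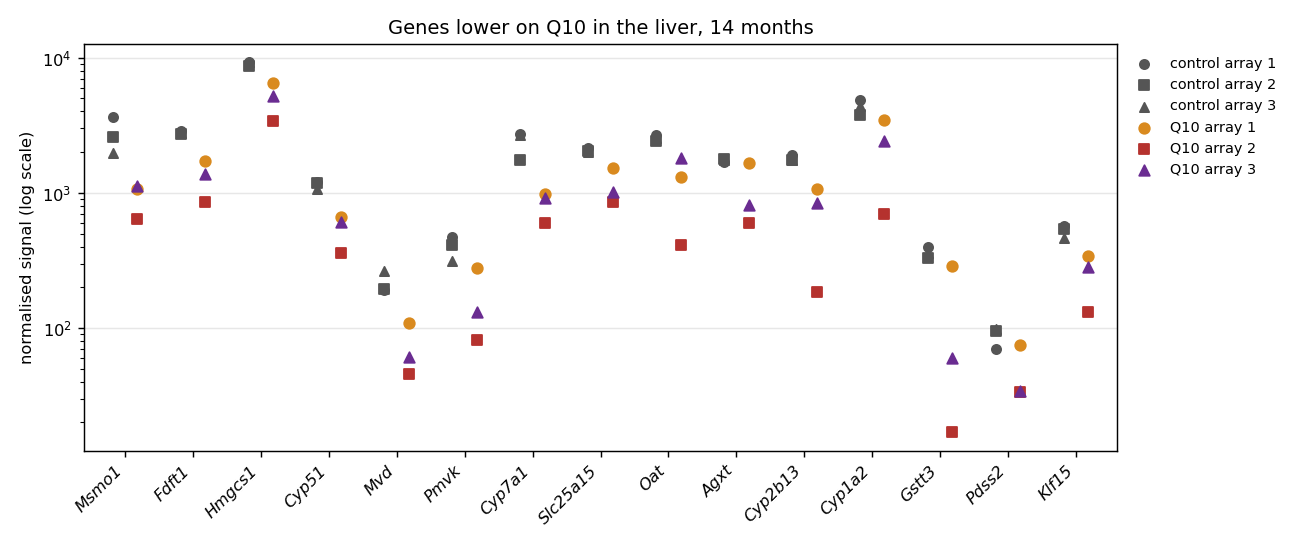
Quantile normalised signal on a log scale (y axis) of 15 genes called lower on Q10 (x axis), in the 3 control arrays (grey) and the 3 Q10 arrays (colours) at 14 months. Array 2 (squares) is the lowest for all 15, and array 1 (circles) lies closest to the controls for most of them, as for Gstt3 at 286 in array 1 against 16.9 in array 2.

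Amino acid breakdown and the urea cycle fell in 9 of 36 genes, and all 36 had a negative difference (median -0.596, -0.11, -0.98 and -0.59 by array, -0.32 with the values as deposited). Slc25a15, which carries ornithine into mitochondria for the urea cycle, was 2137, 2047 and 2013 on control and 1523, 856 and 1009 on Q10 (log2 -0.91 ± 0.16, adjusted p = 0.00244), the one call of the 9 that passed whichever array was left out. Oat, which breaks down ornithine, was 2670.2, 2406 and 2561 on control and 1300.2, 413 and 1817 on Q10 (log2 -1.36 ± 0.35, adjusted p = 0.0291). Gnmt, which spends methyl groups on glycine and is among the most abundant liver enzymes, was 7467, 7962 and 6693 on control and 6162, 3513 and 5033 on Q10 (log2 -0.62 ± 0.16, adjusted p = 0.0288). Each of these 3 was below the controls in all Q10 arrays, with array 2 lowest. Agxt, which clears glyoxylate (1683, 1788 and 1743 on control and 1659, 598 and 819.5 on Q10, log2 -0.895 ± 0.24, adjusted p = 0.031), and Cth, which makes cysteine (log2 -0.75 ± 0.196, adjusted p = 0.0304), fell as well. Gnmt, Agxt and Cth were called with all 6 arrays or without Q10 array 1 but not without any other array (adjusted p = 0.0512 to 0.192). Oat lost its call without control array 1 (adjusted p = 0.0905), control array 2 (0.085), control array 3 (0.083) or Q10 array 2 (0.115). Along the liver lobule, 3 of 13 genes of perivenous hepatocytes fell (median -0.83, -0.22, -1.55 and -0.37 by array, -0.32 with the values as deposited), Oat among them. Cyp1a2 was 4837, 3773 and 4421 on control and 3471, 702 and 2403 on Q10 (log2 -1.26 ± 0.36, adjusted p = 0.0468). The glutamate transporter Slc1a2 was 454, 457 and 476 on control and 291, 23.4 and 249 on Q10 (log2 -1.93 ± 0.57, adjusted p = 0.0499). Of 10 periportal genes none fell and Ctsc, also a leukocyte protease, rose (median -0.42, -0.16 as deposited). Cyp1a2 was called with all 6 arrays or without Q10 array 1 but not without any other array (adjusted p = 0.0686 to 0.201). Slc1a2 lost its call without control array 1 (adjusted p = 0.121), control array 2 (0.138), control array 3 (0.129) or Q10 array 2 (0.104).

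Drug metabolising cytochromes fell in 3 of 32 genes, with a median of -0.57 that came from array 2 (0.0037, -1.31 and -0.31 by array, -0.31 with the values as deposited). Cyp2b13 and Cyp2b9, close relatives that are higher in female liver, were 1916, 1749 and 1738 on control and 1075, 186 and 835 on Q10 and 1939.9, 2081 and 1931 on control and 1487, 221 and 864 on Q10. No Q10 array reached the controls in either (log2 -1.71 ± 0.39, adjusted p = 0.0152 and log2 -1.59 ± 0.401, adjusted p = 0.025). Cyp2c29 was 5641, 5946 and 5423 on control and 4501, 828 and 4035 on Q10 and did not pass (log2 -1.198 ± 0.38, adjusted p = 0.0703). Cyp2b13 lost its call without control array 1 (adjusted p = 0.0563) or control array 2 (0.0568). Cyp2b9 lost its call without control array 1 (adjusted p = 0.0725), control array 2 (0.0921) or control array 3 (0.07). Of 34 conjugating enzymes 4 fell (median -0.39, 0.049, -0.82 and -0.32 by array, -0.097 with the values as deposited). The glutathione transferase Gstt3 was 396, 328 and 358 on control and 286, 16.9 and 60.05 on Q10 (log2 -2.41 ± 0.55, adjusted p = 0.0155). Nnmt, which methylates nicotinamide, was 360.4, 381 and 648 on control and 479.9, 60.96 and 32.4 on Q10 (log2 -2.16 ± 0.62, adjusted p = 0.0442). Array 1 lay near or within the controls for both. Ces1e, a carboxylesterase, was 1073, 1279 and 1167 on control and 876, 71.05 and 392 on Q10 (log2 -2.01 ± 0.51, adjusted p = 0.0267). Akr1c19, an aldo keto reductase, was 121, 182 and 107 on control and 93.96, 11.5 and 56.97 on Q10 (log2 -1.71 ± 0.47, adjusted p = 0.0365). Gstt3, Nnmt and Akr1c19 were called with all 6 arrays or without Q10 array 1 but not without any other array (adjusted p = 0.0507 to 0.221). Ces1e lost its call without control array 1 (adjusted p = 0.0698), control array 2 (0.0991), control array 3 (0.0769) or Q10 array 3 (0.054).

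Fatty acid genes gave few calls. Of 23 synthesis genes 2 fell, Fads1 (log2 -0.57 ± 0.16, adjusted p = 0.038) and Dgat1 (log2 -0.69 ± 0.201, adjusted p = 0.049), and Scd2, a desaturase isoform scarce in hepatocytes, rose (27.99, 25.003 and 35.8 on control and 43.9, 296 and 117 on Q10, log2 1.94 ± 0.43, adjusted p = 0.0124), with a median of -0.52 (0.14, -0.96 and -0.88 by array, -0.26 with the values as deposited). Of 36 (of 37 on the array) genes of oxidation and PPAR alpha targets 2 fell, Acads (log2 -0.75 ± 0.18, adjusted p = 0.0173) and the peroxisomal thiolase Acaa1a (log2 -1.11 ± 0.28, adjusted p = 0.0239), with a median of -0.45 (-0.23 as deposited). Cyp4a14, the most inducible PPAR alpha target, was 1758, 2535 and 1545 on control and 746, 86.9 and 1521 on Q10 and did not pass (log2 -2.04 ± 0.62, adjusted p = 0.0584). Fads1, Dgat1, Acads and Acaa1a were called with all 6 arrays or without Q10 array 1 but not without any other array (adjusted p = 0.0528 to 0.235). Scd2 lost its call without control array 2 (adjusted p = 0.0641), Q10 array 2 (0.0799) or Q10 array 3 (0.0527). Among 24 apolipoproteins and lipases, Pltp, which transfers phospholipids between lipoproteins, was 1049, 854 and 1332 on control and 2269, 2847 and 4569 on Q10 (log2 1.54 ± 0.28, adjusted p = 0.00317). Lipoprotein lipase Lpl was 85.5, 72.01 and 132 on control and 189.7, 515 and 347 on Q10 (log2 1.78 ± 0.34, adjusted p = 0.00477). Both were higher in every Q10 array than in any control, and the endothelial lipase Lipg fell (log2 -1.23 ± 0.299, adjusted p = 0.0205). Lipg lost its call without control array 1 (adjusted p = 0.0952), control array 2 (0.0766), Q10 array 2 (0.135) or Q10 array 3 (0.103). Dio1, which activates thyroid hormone, was 1489, 1327 and 1399 on control and 1168, 256 and 248 on Q10 (log2 -1.74 ± 0.39, adjusted p = 0.013). Vldlr, the receptor for very low density lipoprotein, was 111, 138 and 122 on control and 101, 21.4 and 30.4 on Q10 (log2 -1.58 ± 0.37, adjusted p = 0.0179). Dio1 lost its call without Q10 array 2 (adjusted p = 0.0897) or Q10 array 3 (0.0866). Vldlr lost its call without control array 2 (adjusted p = 0.0806), control array 3 (0.0565), Q10 array 2 (0.124) or Q10 array 3 (0.0936). Of 14 (of 17 on the array) tested genes of major urinary proteins and growth hormone targets Mup5 (53.8, 67.04 and 97.5 on control and 79.5, 7.65 and 7.45 on Q10) and Mup10 (48.2, 42.05 and 144 on control and 73.8, 4.3000 and 1.33 on Q10) fell (log2 -1.99 ± 0.54, adjusted p = 0.0364 and log2 -2.79 ± 0.81, adjusted p = 0.047). Array 1 was within the controls for both, and probes of this family may read several members. Mup5 and Mup10 were called with all 6 arrays or without Q10 array 1 but not without any other array (adjusted p = 0.0673 to 0.233). Klf15, a transcription factor of amino acid breakdown, was 572, 542 and 464 on control and 339, 132 and 283 on Q10 (log2 -1.16 ± 0.26, adjusted p = 0.012). Hlf was called among 19 (of 21 on the array) clock genes (log2 -0.76 ± 0.22, adjusted p = 0.0449). Hlf was called with all 6 arrays or without Q10 array 1 but not without any other array (adjusted p = 0.0952 to 0.264). Klf15 lost its call without control array 1 (adjusted p = 0.0535) or control array 2 (0.056).

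Genes by which the liver makes and uses its own coenzyme Q gave few calls. Of 14 synthesis genes Pdss2, which with its partner builds the side chain, fell (69.4, 94.8 and 97.99 on control and 75.01, 33.4 and 34.1 on Q10, log2 -0.96 ± 0.24, adjusted p = 0.024). All 14 differences were negative, with a median of -0.46, of -0.13, -0.801 and -0.48 by array, and of -0.022 with the values as deposited. Coq8a, a kinase like regulator of the synthesis complex, was 610.3, 628 and 759 on control and 668, 232 and 286 on Q10, with array 1 within the controls (log2 -0.902 ± 0.28, adjusted p = 0.0584), and the other of its 2 tested probe sets was called lower (log2 -1.336). Coq5, a methyltransferase of the pathway, was 149, 139.9 and 211 on control and 154, 103 and 105 on Q10 (log2 -0.46 ± 0.18, adjusted p = 0.129), and did not pass, nor did the Coq8a probe set given. Pdss2 lost its call without control array 2 (adjusted p = 0.104), control array 3 (0.0956), Q10 array 2 (0.154) or Q10 array 3 (0.125). Among 13 enzymes that hand electrons to ubiquinone Prodh, proline dehydrogenase, fell (1025, 993 and 959 on control and 1011, 349 and 344 on Q10, log2 -1.001 ± 0.29, adjusted p = 0.0459). Sqor, which oxidises sulfide (log2 -0.63 ± 0.196, adjusted p = 0.062), and Etfdh, which takes electrons from fatty acids (log2 -0.44 ± 0.19, adjusted p = 0.168), did not pass. Prodh was called with all 6 arrays or without Q10 array 1 but not without any other array (adjusted p = 0.107 to 0.259). Complex I had 1 of 33 (of 34 on the array) genes called, Ndufb9 (2863, 2825 and 3016 on control and 2609, 1434 and 1846 on Q10, log2 -0.61 ± 0.16, adjusted p = 0.0317), at a median of -0.27 (-0.085 with the values as deposited), and complexes III to V 1 of 31, Uqcrq of complex III (log2 -0.55 ± 0.15, adjusted p = 0.0349), at -0.23 (-0.034 as deposited). Ndufb9 and Uqcrq were called with all 6 arrays or without Q10 array 1 but not without any other array (adjusted p = 0.0871 to 0.189). In the citric acid cycle Idh1 and Dlst fell (log2 -0.48 ± 0.13, adjusted p = 0.0402 and log2 -0.53 ± 0.15, adjusted p = 0.0388) of 21, and 3 of 43 mitochondrial ribosomal genes. Idh1 and Dlst were called with all 6 arrays or without Q10 array 1 but not without any other array (adjusted p = 0.0767 to 0.204). With array 1 as the only Q10 array none of these lists had a called member, and its medians ranged from -0.13 for the citric acid cycle to -0.023 for complex I.

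Several groups gave no call in limma's fit. They were the 25 hepatocyte identity genes (median -0.13, 0.038 with the values as deposited, 6 at an unadjusted p under 0.05), 23 (of 25 on the array) coagulation genes (-0.05, 0.071 as deposited, 4 unadjusted) and 24 heat shock chaperones (-0.25, -0.022 as deposited, 5 unadjusted). The 33 genes of the unfolded protein response had none either (median -0.096, 7 unadjusted, median 0.23 with the values as deposited). Markers of bile ducts, fat cells, pancreas and of kidney, lung and muscle had low signals in all 6 arrays, with some exceptions. These were Car3 and Cela1, which liver also expresses, Fabp4 (52.9, 52.1 and 76.96 on control and 46.6, 802 and 125 on Q10) and Prom1. None of the markers was called. The lists had 5 (of 10 on the array), 4 (of 9 on the array), 3 (of 8 on the array) and 5 (of 12 on the array) tested members. Of these 0, 2, 0 and 1 had an unadjusted p under 0.05 in limma's fit. Antioxidant and NRF2 target genes had 1 of 26 (of 27 on the array) called, Hmox1, at a median of -0.11 (0.12 as deposited). Superoxide dismutase Sod1 was 4133, 4066 and 4308 on control and 4035, 2376 and 3113 on Q10 (log2 -0.43 ± 0.16, adjusted p = 0.109) and did not pass. Acute phase genes had 2 of 26 called, Cd14 and Steap4, and some members differed by array in other ways. Saa3, a serum amyloid made by macrophages, was 79.8, 80.9 and 83.99 on control and 98.5, 34.4 and 1657 on Q10, high in array 3 alone (log2 1.12 ± 0.797, adjusted p = 0.451). Saa4, made by hepatocytes, was 2406, 2253 and 2470.3 on control and 2265, 377 and 1646 on Q10, low in array 2 (log2 -1.08 ± 0.39, adjusted p = 0.102). Hamp, the iron hormone hepcidin, was 8187, 8889.5 and 9177 on control and 8010.04, 8423 and 149 on Q10. Its neighbour Hamp2 was 4282, 5683 and 8010.04 on control and 8187, 692 and 195 on Q10. Each was low in array 3 and neither was called (log2 -2.02 ± 0.89, adjusted p = 0.191 and log2 -2.48 ± 0.75, adjusted p = 0.0538), and the probes of this pair may read both. Amyloidosis is common in aged SAMP1 mice, and the precursor genes Apoa2 (log2 -0.043 ± 0.12, adjusted p = 0.879) and Ttr (log2 0.015 ± 0.11, adjusted p = 0.962) were not called. Of 16 amyloid related genes 3 were called, all higher, and 2 of these passed whichever array was left out (median 0.044, 0.25 as deposited and -0.26 with arrays scaled to one median). Steap4 lost its call without control array 2 (adjusted p = 0.141), control array 3 (0.155), Q10 array 2 (0.206) or Q10 array 3 (0.133).

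The 15 named genes with the greatest fall included 5 that passed whichever array was left out. Fam214a was 234, 169.6 and 234 on control and 73.8, 38.7 and 51.6 on Q10 (log2 -1.97 ± 0.29, adjusted p = 0.000673). Gas1, a surface protein induced at growth arrest, was 439, 573 and 418 on control and 214, 66.5 and 132 on Q10 (log2 -1.93 ± 0.303, adjusted p = 0.00115). Mtss1, an actin and membrane binding protein, was 330.4, 256 and 275 on control and 138, 50.2 and 115 on Q10 (log2 -1.61 ± 0.31, adjusted p = 0.0053), and 1 of its 6 tested probe sets was called (log2 -1.611 to -0.2594). Igha, given above, is another, and Rcan2, an inhibitor of calcineurin, was the fifth (229, 292 and 175 on control and 124, 25.6 and 44.5 on Q10, log2 -2.097 ± 0.36, adjusted p = 0.00224). In the liver arrays on QH2 or at 6 months, Fam214a ranged from 17.2 to 136 and Igha from 20.4 to 89.6. Both ranges lay below every 14-month control and spanned the 14-month Q10 values. For Mtss1 that range was 40.3 to 273, which also spanned the Q10 values. For Gas1 (306 to 539) and Rcan2 (144 to 302) it lay above all 14-month Q10 arrays. Of 8 nuclear long noncoding RNAs 1 was called: Meg3, made from an imprinted cluster, was 72.4, 67.2 and 82.1 on control and 45.03, 24.4 and 41.9 on Q10 and fell by 1.02 on the log2 scale (adjusted p = 0.00962). Of its 8 tested probe sets 3 were called lower and the differences ran from -2.002 to 0.589. Meg3 lost its call without Q10 array 2 (adjusted p = 0.07). Of the rest, Mmd2 (140.2, 133 and 139 on control and 124, 16.6 and 21.2 on Q10, log2 -1.92 ± 0.48, adjusted p = 0.0239) and the kinase Sgk2 (223, 193 and 252 on control and 176, 19.9 and 95.3 on Q10, log2 -1.65 ± 0.47, adjusted p = 0.0436) were lowest in array 2. Mmd2 and Sgk2 were called with all 6 arrays or without Q10 array 1 but not without any other array (adjusted p = 0.0723 to 0.174).

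**Figure D5:**
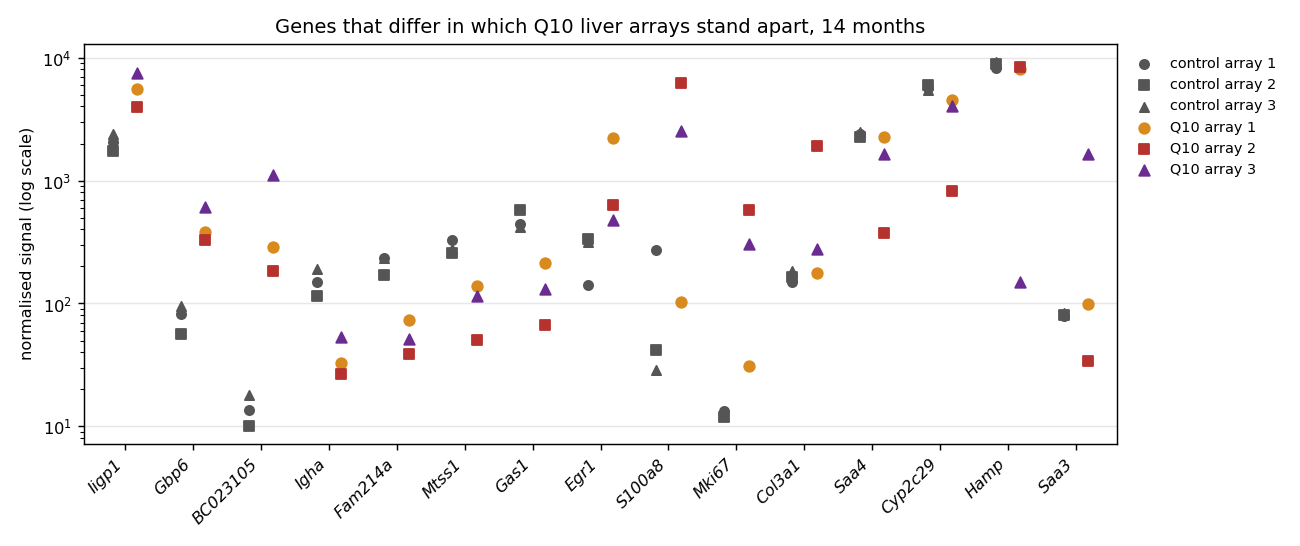
Quantile normalised signal on a log scale (y axis) of 15 genes (x axis) that differ in which Q10 arrays stand apart, in the 3 control arrays (grey) and the 3 Q10 arrays (colours) at 14 months. Iigp1, Gbp6 and BC023105 are higher and Igha, Fam214a, Mtss1 and Gas1 lower in all 3 Q10 arrays, whereas Egr1 stands out in array 1, S100a8 and Mki67 in arrays 2 and 3 and Hamp and Saa3 in array 3, and Col3a1 is highest in array 2.

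The difference of the Q10 change between 14 and 6 months, tested as an interaction in the same fit with 4 groups that share no array, passed for 630 probe sets (2.33%), 271 more positive and 359 more negative at 14 months. By list it passed for 18 of 23 macrophage genes (median difference 2.54), 10 of 35 interferon genes (1.14), 5 of 15 class I genes (0.88), 4 of 15 B cell genes (2.99) and 0 of 17 cholesterol synthesis genes (-0.5999, 4 at an unadjusted p under 0.05). Ccl5 was one of the genes that differed (log2 5.61 ± 0.96, adjusted p = 0.00538), and Fam214a differed in the other direction (-3.31 ± 0.404, adjusted p = 0.00063). Their changes at 14 months were 5.01 and -1.97, so both differences include a change in the other direction at 6 months. The count fell to 1 with the Actb ratio as covariate (1894 at an unadjusted p under 0.05) and to 29 with the values as deposited.

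Q10 and its reduced form QH2, which carries a hydroquinone in place of the quinone ring, were compared at 14 months and the same dose, 3 arrays each. This comparison uses the same Q10 arrays as that with control, and 2632 probe sets passed (9.74%), 1332 higher and 1300 lower on Q10. The split moved with the scaling, from 50.6% higher here to 96.4% of 1036 with the values as deposited and 24.2% of 4727 with arrays scaled to one median. It passed for 21 of 23 macrophage genes (median 2.695), 22 of 35 interferon genes (1.28), 7 of 14 neutrophil genes (3.27), 9 of 17 cholesterol synthesis genes (-0.76) and 11 of 33 complex I genes (-0.45). Marco, for one, was 9.31, 15.5 and 6.34 in the 3 QH2 livers, overlapping the control values of 24.1, 9.11 and 11.5 and below 75.8, 1237 and 1699 on Q10. Igha did not differ beyond the threshold between the compounds (log2 -0.63 ± 0.31, 95% interval -1.27 to 0.014, adjusted p = 0.211), nor did Fam214a (-0.83 ± 0.29, 95% interval -1.43 to -0.23, adjusted p = 0.0716), with QH2 livers at 81.5, 105 and 99.04. The Actb ratio was 7.363, 3.666 and 5.008 on QH2 against 3.045, 1.586 and 1.984 on Q10, and with it as a covariate, or in a fit of the 6 arrays alone, 0 probe sets passed (1204 and 5293 at an unadjusted p under 0.05). With Q10 array 1 as the only Q10 array 11 passed.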

How the data were processed

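Biotinylated cRNA from total liver RNA was hybridised to Affymetrix mouse arrays, taken as 1 array per mouse, and the authors deposited 1 linear signal intensity per probe set and array, made with GCOS per the submitters' processing notes (scaling settings: not given in the sources used here). Deposited intensities differed in level between arrays, so the 18 liver arrays were quantile normalised without the 64 control probe sets and log2(signal + 1) was taken. Probe sets with a mean above the 40th percentile (27022 of 45101) were fitted with limma 3.58.1 in R 4.3.3 (lmFit, eBayes with an intensity trend, the 6 liver groups as coefficients), and p-values were adjusted by Benjamini-Hochberg and called at 0.05. All 18 liver arrays entered the fit so that the spread came from 6 groups. Fold changes are log2 differences ± SE with 3 arrays a group, on a scale where the added 1 lessens the change of dim genes. The number of arrays limits the precision: the 95% interval of a log2 difference had a median half-width of 0.69 over the tested probe sets. P-values rest on the spread between mice pooled over the 6 liver groups and the intensity trend, not on that of the mice compared alone.

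Probe sets took gene symbols from the platform annotation: 34945 had 1 symbol (34741 matched by Entrez ID), 932 had several and were not named, and 9160 had none. A gene in a list was counted at its brightest tested probe set. Genes named by size were the 15 higher and 15 lower called genes of greatest change whose groups did not overlap and whose higher group averaged at least 100. From each list those of smallest p, and others for their role, were named. The comparison, the 72 gene lists and these rules were chosen with earlier results of these data known. Promoters are RefSeq's for GRCm38.p6, 250 bases before to 50 after each gene start. The fit was tested on simulated data in which all groups had the same spread. That test does not bear on a group as uneven as the Q10 arrays. Alternatives covered normalisation, offset, filter, trend, the arrays fitted, array weights, the Actb ratio, replicate number as a block, probe set averaging and each array left out, and after the data were seen Q10 arrays 2 and 3 were left out together. The pairwise comparison of arrays found at most 1.56% identical values, so none was a copy.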

Additional observations from a re-analysis of the deposited data

Results flagged for a closer look

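The change on Q10 differed between 14 and 6 months by limma's interaction term for 630 probe sets (Benjamini-Hochberg adjusted p of at most 0.05). Of the 30 genes chosen by size 13 were among them. The log2 change was more positive at 14 months by 6.037 for Cxcl13, 5.615 for Ccl5, 4.523 for BC023105, 4.296 for Rac2, 4.037 for Cd24a, 4.022 for Cd52, 3.877 for Ighm, 3.874 for Itgb2, 3.873 for Cytip and 3.795 for Coro1a. These are chemokines, surface antigens and motility genes of leukocytes, with BC023105 and the IgM heavy chain. It was more negative by -3.311 for Fam214a, -2.421 for Mtss1 and -1.913 for Gas1. The change at 14 months was itself -1.973 for Fam214a, -1.611 for Mtss1 and -1.926 for Gas1. For Fam214a and Mtss1 part of the difference therefore came from a change in the other direction at 6 months. All 13 were called at 14 months with every array in the fit. Among all 247 genes named in the text the difference passed for 75. The part of RNA integrity in these differences was not tested gene by gene; over all probe sets 1 call was left with the Actb ratio as a covariate.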

How the results depend on the processing

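Of 72 gene lists 60 kept the sign of their median with the values as deposited, 68 with arrays scaled to one median and 58 with Q10 array 1 as the only Q10 array. With the values as deposited the median turned to 0.13 for the constitutive proteasome, 0.12 for antioxidant genes and 0.23 for the unfolded protein response, and above the 60th percentile that of T cell genes turned to -0.22. With Q10 array 1 alone the log2 difference turned to 0.15 for Mup10, 0.17 for Mup5, 0.10 for Nnmt and 0.027 for Prodh. Of the 203 genes named and called, 136 were called with the values as deposited, 186 scaled to one median, 202 with an offset of 16, 123 without the intensity trend and 5 with Q10 array 1 alone.

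The calls numbered 1677 for Q10 against control, 630 for the difference between ages and 2632 for Q10 against QH2. As deposited they were 789, 29 and 1036 (97.6%, 65.5% and 96.4% higher). Scaled to one median Q10 against QH2 gave 4727, of which 24.2% were higher against 50.6%. Without the trend they were 777, 329 and 1534. With only the arrays compared they were 0, 348 and 0, and with the Actb ratio 0, 1 and 0. Quality weights gave 12240, 5154 and 11862, but their estimation stopped before convergence and gave Q10 array 3 a weight of 32.5 against 0.252 and 0.327 for arrays 1 and 2. With Q10 array 1 alone they were 14, 92 and 11, that array being assumed to vary like the other groups. Leaving out 1 array gave 468 to 5416, 198 to 3218 and 767 to 5914. Other offsets and filters kept each count within 1.5 times. The replicate numbers did not pair the mice (same-numbered deviations correlated at -0.101, -0.0893 and -0.0361), and with the number as a block the counts were 1643, 545 and 2761. The cause of these differences was not tested. Genes near background are limited by signal.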
